A study of Xenopus laevis with 3 samples.

Results

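The Sox genes encode transcription factors that bind DNA through an HMG box related to that of the sex-determining factor SRY. Every feature of the gene expression tables whose name begins with sox followed by a digit was taken, which gave 36 of the 44454 features with a gene name. Expression played no part in this choice. Xenopus laevis is allotetraploid and most of its genes exist as 2 homeologs, one on a long (.L) and one on a short (.S) chromosome of each pair, and both homeologs were listed for 17 of the Sox genes, the exceptions being sox13.S and sox15.L. The members fell into SoxB1 (sox1, sox2 and sox3, 6 features), SoxB2 (sox14 and sox21, 4), SoxC (sox4, sox11 and sox12, 6), SoxD (sox5, sox6 and sox13, 5), SoxE (sox8, sox9 and sox10, 6), SoxF (sox7, sox17a, sox17b.1 and sox18, 8) and SoxG (sox15, 1).

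Sox factors bend DNA and usually act with partner factors, so that subfamilies with nearly the same binding motif serve different cells. SoxB1 factors are known for keeping neural and pluripotent progenitors undifferentiated and work with POU factors; in Xenopus, maternal Sox3 is stored in the oocyte and acts in the early embryo, and sox15 is listed in RefSeq with the synonym sox-d. SoxD proteins lack a transactivation domain of their own, SoxE factors include the testis factor Sox9 and the neural crest factor Sox10, SoxF factors act in endothelium and endoderm, and SoxC factors in many progenitor cells.

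Single-cell RNA libraries were made from 3 individual ovaries of wild-type juveniles (Nieuwkoop-Faber stages 62 to 66) that carried no introduced allele and received no treatment, labelled as biological replicates and called here ovary 1, ovary 2 and ovary 3. About 10000 collagenase-dissociated, strained cells were loaded per library, so oocytes too large for the strainers were not sampled. The question for this family was which of its members each germ cell stage and each somatic cell type carried. All groups compared were therefore cell groups of the same 3 ovaries, rebuilt here by clustering and named from markers, and none of the markers was a Sox gene. After the filters, 17147 cells remained, 8175 of them germ cells and 8972 somatic cells, although the labels describe the material as germline cells.

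The germ cells fell into 11 clusters. Those matching marker lists were called germline stem cell (GSC)-like (166 cells, led by piwil4.S), G2/M-like (620), pre-meiotic S-like (635), leptotene-zygotene-like (1410), pachytene-like (1265), early diplotene-like (990) and stage 1 follicle-like (542 cells, the most advanced named oocytes). The pachytene-like cluster carried the leptotene-zygotene list at least as strongly as its own. The G2/M-like cluster was led by cyp26a1.S, which the paper uses as the marker of a separate oogonia cluster. No group was named oogonia here, so the G2/M-like cluster may hold oogonia beside dividing cells. It held 245 cells when Sox genes were kept in the clustering. Cluster 5 carried the G2/M list more strongly than the G2/M-like cluster in ovaries 1 and 3, and less strongly in ovary 2. Cluster 3 (858 cells), cluster 4 (826), cluster 5 (779) and cluster 10 (84) stayed unnamed. Cluster 4 was led by haemoglobin genes, and cluster 5 had few UMIs per cell and carried stage 1 follicle markers. A further 295 germ cells with over 8000 genes lay outside the upper limit of the filter and were kept apart. Somatic cells were stromal-like (3623), epithelial-like (2607), follicle-like (1476), leukocyte-like (796), endothelial-like (313), erythroid-like (100) and mural-like (57, too few per ovary for a test).

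The 3 libraries held 5987, 6302 and 6964 cells and 54386717, 50085751 and 33909102 UMIs in named features, with medians of 2630, 4939 and 1740 UMIs per kept cell. The makeup of the libraries differed, with 1032, 4181 and 2962 germ cells in ovaries 1, 2 and 3. Between 6 and 16 cell barcodes were shared by any pair of libraries. Levels below are UMIs per 10000 UMIs of all cells of a group in one ovary, listed for ovaries 1, 2 and 3 in that order. They are tags at the 3′ end of transcripts and were compared between cell groups, not between genes. Because a level is a share of all UMIs, differences were tested with edgeR's quasi-likelihood test on the summed UMIs, scaled by TMM so that the change is relative to the typical gene. A member was called when its p-value, adjusted by Benjamini-Hochberg over all genes tested, was under 0.05. The p-values measure the spread between these 3 ovaries, and the groups had been separated on the expression of the other genes of the same cells. Reads that fit both homeologs equally well cannot be told apart, and their share was not tested.

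Sox transcripts were rare and were mostly those of a few oocyte genes. The 36 members took 48634, 9983 and 25882 UMIs, which was 0.0894%, 0.0199% and 0.0763% of all UMIs of ovaries 1, 2 and 3, and sox3 and sox15.L together supplied 91.7%, 58.1% and 90.4% of them. Of the 36 members, 24 reached a mean level of 0.1 in some cell group, were called in a comparison or were sox2 homeologs, and these are described with their values. The other 12 had between 0 and 69 UMIs in all libraries and never exceeded a mean level of 0.0672. Of these, sox12.L, sox21.L and sox21.S had no UMI. The test could be run on 20 members in at least 1 of the 19 comparisons, and 16 members had too few UMIs for any. The map of mean levels shows sox3 and sox15.L highest in late germ cell groups, sox7, sox17a and sox18.L in endothelial-like cells, and sox2.S in cluster 10.

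**Figure D1:**
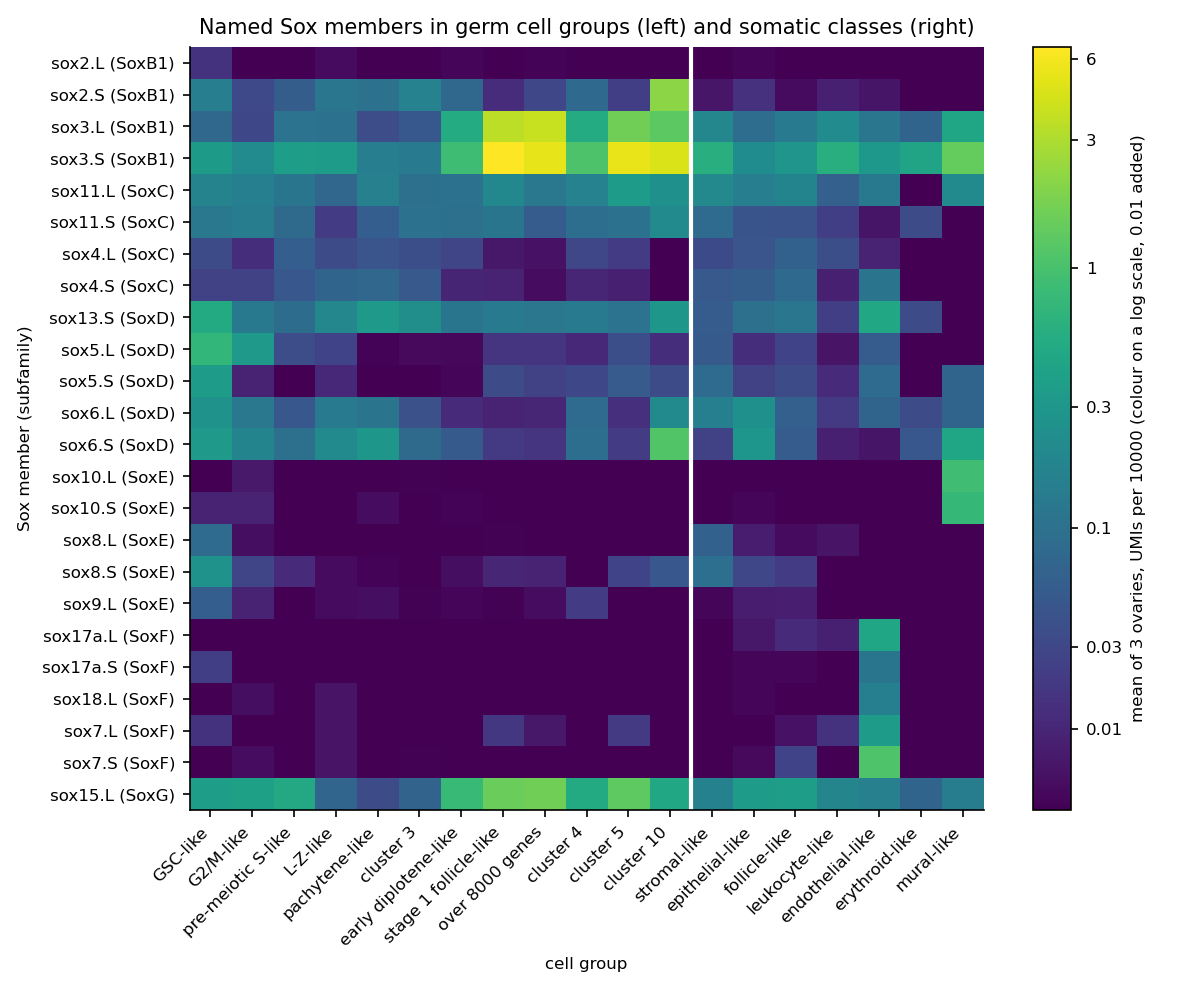
Mean level over 3 ovaries of the described Sox members (rows) in each germline and somatic cell group (columns). Colour gives UMIs per 10000 UMIs on a log scale after a small constant was added. Brighter colours are higher. The SoxF genes sox7, sox17a and sox18.L are brightest in the endothelial-like column, and sox3 and sox15.L in the stage 1 follicle-like column and in the germ cells with over 8000 genes.

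Counted over the family, germ cells differed from somatic cells in 10 of 18 members tested, with sox2.S higher and 9 members lower in germ cells, while 48.6% of all genes tested were called in either direction. The share of members was thus near that of all genes. Scaling by total UMIs, chosen after seeing the data, moved the median of all genes by 0.74 on the log2 scale in this comparison. It called 8 of the 18 members, 3 higher and 5 lower, beside 62.1% of all genes. Among the germline stages, GSC-like cells had 5 members higher and 3 lower than in the other germ cells out of 13 tested, beside 37.2% of all genes. Stage 1 follicle-like cells had 4 higher and 4 lower of 13 (33.7% of all genes), G2/M-like cells 1 higher and 4 lower of 10 (29.4%), and pachytene-like cells 1 higher and 4 lower of 12 (15.5%). Leptotene-zygotene-like cells had 4 members lower of 12 (36.5%), pre-meiotic S-like cells 2 lower of 12 (21.2%), and early diplotene-like cells 1 lower of 13 (2.63%).

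Among the unnamed germline clusters, cluster 10 had 2 members higher of 10 (20.9% of all genes called) and cluster 3 had 1 lower of 12 (0.326%). No member was called by edgeR in cluster 4 of 10 tested, where 0% of all genes were called and no member had an unadjusted p under 0.05, and none by DESeq2. No member was called by edgeR in cluster 5 of 10 tested (2.1%), where 2 members had an unadjusted p under 0.05 and DESeq2 called 0. The germ cells with over 8000 genes had 1 member higher and 1 lower of 14 than the other germ cells (14.8%). Of the somatic classes, endothelial-like cells had 5 members higher and 1 lower of 14 (12.2%), stromal-like cells 3 higher and 2 lower of 15 (17.3%), and epithelial-like cells 1 higher and 2 lower of 14 (14.1%). Follicle-like cells had 2 lower of 14 (4.23%) and leukocyte-like cells 2 lower of 10 (24.8%). In erythroid-like cells no member was called by edgeR or DESeq2 of 9 tested (9.79%), with 1 at an unadjusted p under 0.05.

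Of the 66 calls over these comparisons, 19 were kept under every alternative that could be fitted, and none changed direction. The kept calls included members that passed the count filter through a single group of sums. The filter fixed the direction of such calls, so its constancy is no support for them. An alternative counted only where the member was tested in it. With the deeper sums thinned, 38 calls were kept, 3 were lost and the rest were not tested. Most losses came from leaving out an ovary, which leaves 2 sums per group: 34 calls were lost without ovary 1, 15 without ovary 2 and 38 without ovary 3. With the ovary as a block in the fit, the count of called members was 6 in early diplotene-like and 4 in pre-meiotic S-like cells, 4 in cluster 3, 2 in cluster 4 and 1 in cluster 5. It was 7 in epithelial-like, 4 in leukocyte-like and 10 in stromal-like cells, and 8 in the germ cells with over 8000 genes. The share of all genes called with the block is not given here, so these counts have no background beside them. Scaling by total UMIs moved the median of all genes by 0.75 in GSC-like, 0.23 in G2/M-like, 0.29 in pre-meiotic S-like, 0.48 in leptotene-zygotene-like, 0.40 in pachytene-like and 0.55 in cluster 10 cells. It moved it the other way in early diplotene-like (-0.45), stage 1 follicle-like (-0.59) and erythroid-like cells (-0.46) and in the germ cells with over 8000 genes (-0.76). Under it the members called were 7 higher and 2 lower in GSC-like, 2 higher and 3 lower in leptotene-zygotene-like, 3 higher and 4 lower in pachytene-like and 3 higher and 4 lower in stage 1 follicle-like cells. The shares of all genes called were 41.5%, 36.9%, 19.4% and 38.4%, in the same order. In epithelial-like cells the members called were 2 higher and 2 lower (13.6% of all genes), and in the germ cells with over 8000 genes 0 higher and 4 lower (29.3%).

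Among the SoxB1 genes, sox3, whose protein acts in the early Xenopus embryo, was the most counted, and its UMIs lay in the oocytes. sox3.S stood at 7.8, 3.18 and 8.88 UMIs per 10000 in stage 1 follicle-like cells, against 0.964, 0.121 and 1.94 in the other germ cells. The lowest stage 1 value, that of ovary 2, was above all 3 values of the other germ cells. The difference was a log2 change of 3.29 ± 0.87 (SE) at an adjusted p of 0.021, a call lost without ovary 1 (adjusted p = 0.099) and without ovary 3 (0.086). Its homeolog sox3.L stood at 4.29, 2.64 and 3.43 in stage 1 follicle-like cells, against 0.413, 0.129 and 0.702 in the other germ cells, a log2 change of 3.63 ± 0.57 (SE) at an adjusted p of 0.0051, a call lost without ovary 3 (adjusted p = 0.069). It was among the 10 leading genes of that cluster by fold, although its name rested on other genes and sox3 had been kept out of the clustering. In early diplotene-like cells sox3.S was lower, at 0.659, 0.227 and 1.73, and was not called there, with a log2 difference of -1.54 ± 1.00 (SE, adjusted p = 0.36) and of -1.11 with the ovary as a block (adjusted p = 0.0057).

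Before the oocyte stages sox3 was low. In GSC-like cells sox3.S had 0.354, 0.214 and 0.433 and sox3.L had 0.0473, 0.134 and 0.0542 UMIs per 10000, and the other germ cells had 3.68, 0.278 and 4.99 of sox3.S and 1.95, 0.259 and 1.9 of sox3.L. For sox3.L this was a log2 change of -4.82 ± 0.88 (SE) at an adjusted p of 0.0022. For sox3.S, whose ovary 2 values were close in both groups, it was a log2 change of -3.99 ± 0.91 (SE) at an adjusted p of 0.0070, a call lost without ovary 1 (adjusted p = 0.074) and without ovary 3 (0.062). In G2/M-like cells sox3.L was at 0.0139, 0.0254 and 0.0537, against 2.29, 0.266 and 1.94 in the other germ cells, a log2 change of -6.08 ± 0.94 (SE) at an adjusted p of 0.0032, and sox3.S was lower by a log2 change of -4.41 ± 1.12 (SE) at an adjusted p of 0.019, a call lost without ovary 1 (adjusted p = 0.13) and without ovary 3 (0.067).

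It was also low from pre-meiotic S-like to pachytene-like cells. Leptotene-zygotene-like cells had 0.0386, 0.0377 and 0.236 of sox3.L, a log2 change of -4.29 ± 0.93 (SE) at an adjusted p of 0.0081, a call lost without ovary 1 (adjusted p = 0.059), and sox3.S changed by -4.02 with the ovary as a block (adjusted p = 4.4e-09) but by -3.65 ± 1.35 (SE, adjusted p = 0.061) without it. In pachytene-like cells sox3.L was at 0, 0.00342 and 0.104 and sox3.S at 0.0308, 0.00342 and 0.425, against 1.93, 0.305 and 2 of sox3.L and 3.65, 0.328 and 5.25 of sox3.S in the other germ cells. For sox3.L this was a log2 change of -5.97 ± 1.16 (SE) at an adjusted p of 0.015, a call lost without ovary 1 (adjusted p = 0.091). For sox3.S it was a log2 change of -4.8 ± 1.4 (SE) at an adjusted p of 0.048, a call lost without ovary 1 (adjusted p = 0.19) and without ovary 3 (0.061). Pre-meiotic S-like cells had 0.0639, 0 and 0.259 of sox3.L, a log2 change of -4.18 ± 1.01 (SE) at an adjusted p of 0.020, a call lost without ovary 1 (adjusted p = 0.11) and without ovary 3 (0.083), and for sox3.S the change was -3.48 ± 1.13 (SE, adjusted p = 0.052) and -3.53 with the ovary as a block (adjusted p = 2.9e-12). In cluster 3, sox3.S stood at 0.0241, 0.0223 and 0.359 and was called only with the block (-4.44, adjusted p = 4.7e-12, against 0.093 without it). So was sox3.L in cluster 3 (-4.34, adjusted p = 2.7e-11) and both homeologs in cluster 4 (-1.29 for sox3.L and -1.56 for sox3.S, adjusted p = 0.00014 and 2.2e-06). In the GSC-like to pachytene-like groups and cluster 3, ovary 3 had the highest sox3.S level, as it did in somatic cells, and the part of free oocyte RNA in these low values was not tested.

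The unnamed clusters 5 and 10 also held sox3.S. Its level was 6.01, 1.35 and 8.47 in cluster 5 and 5.66, 1.4 and 6.83 in cluster 10, with ovary 2 lowest in both, and neither was called against the other germ cells (adjusted p = 0.61 and 0.90). The germ cells with over 8000 genes had 5.86, 1.9 and 7.9 of sox3.S and 5.13, 1.95 and 4.48 of sox3.L. Against the other germ cells this was a log2 difference of 1.59 ± 0.94 (SE, adjusted p = 0.25) for sox3.S and a log2 difference of 2.29 ± 0.74 (SE, adjusted p = 0.067) for sox3.L. With the ovary as a block both were called, at 2.12 (adjusted p = 0.00016) and 2.62 (adjusted p = 1.9e-05). The plot of levels by stage shows the low values up to pachytene-like cells and the spread between ovaries in the later groups.

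**Figure D2:**
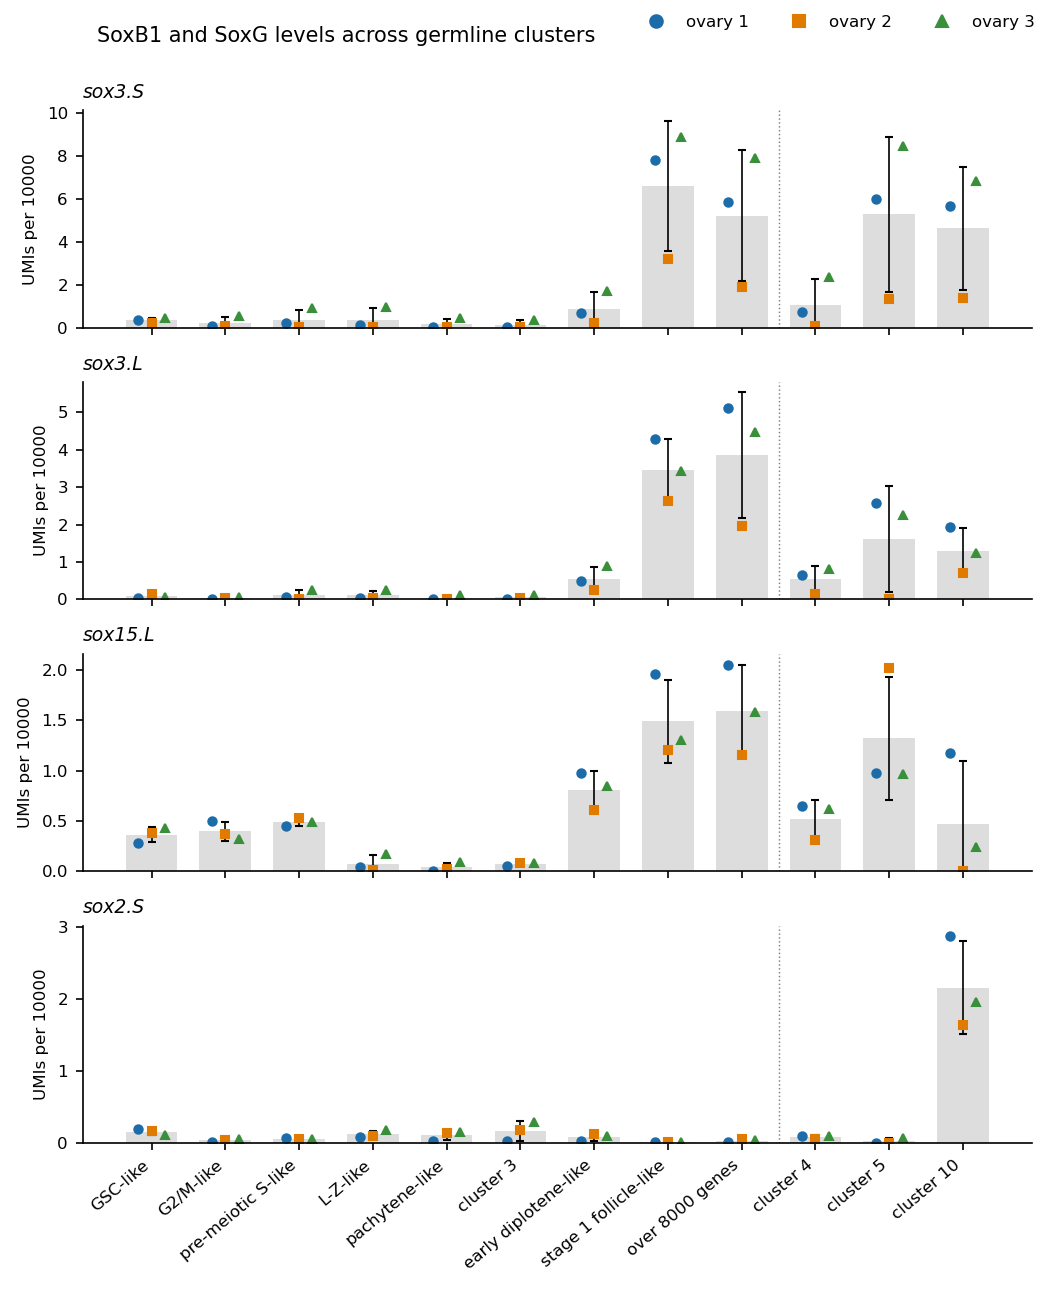
Levels of sox3.S, sox3.L, sox15.L and sox2.S (UMIs per 10000 UMIs) in the germline clusters and in the germ cells with over 8000 genes. Bars are means of 3 ovaries, whiskers the SD, and points the ovaries. sox3.S and sox3.L are high in stage 1 follicle-like cells and in the cells with over 8000 genes, and sox2.S stands out in cluster 10, at 2.88, 1.64 and 1.96 in ovaries 1, 2 and 3.

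The split between the sox3 homeologs differed between the ovaries. The .L copy supplied 35.5, 45.3 and 27.9% of sox3 UMIs in stage 1 follicle-like cells, 42.6, 52 and 33.9% in early diplotene-like cells and 46.7, 50.6 and 36.2% in the germ cells with over 8000 genes, for ovaries 1, 2 and 3. In each of these groups the order of the ovaries was the same, with ovary 2 highest and ovary 3 lowest. Within each ovary, the share was higher in the germ cells with over 8000 genes than in stage 1 follicle-like cells. In cluster 10 the share was 25.4, 33.3 and 15.3%. The differences between groups were not tested over ovaries. In stage 1 follicle-like cells the counting intervals of the 3 ovaries did not overlap, and in cluster 10, with 71, 9 and 202 UMIs, they did.

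**Figure D3:**
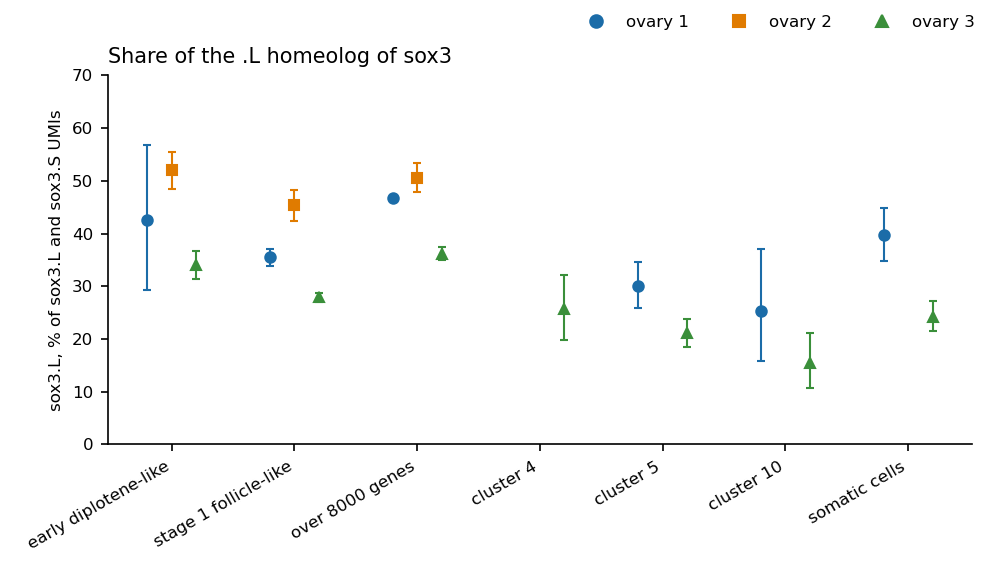
Share of sox3 UMIs that came from sox3.L, in percent, in cell groups with enough sox3 UMIs, for each ovary. Points are ovaries, and bars are exact 95% binomial intervals, which cover counting error only. Ovary 3 lies lowest and ovary 2 highest in stage 1 follicle-like cells, at 27.9% and 45.3%.

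Somatic cells also held UMIs of sox3. Germ cells had 3.49, 0.277 and 4.94 and somatic cells 0.136, 0.0136 and 0.994 UMIs per 10000 of sox3.S, a log2 difference of 2.26 ± 1.37 (SE, adjusted p = 0.20), and 2.92 with the ovary as a block (adjusted p = 0.0016). For sox3.L the difference was 2.53 (adjusted p = 0.084), 2.94 with the ovary as a block (adjusted p = 0.00087) and 3.25 with scaling by total UMIs (adjusted p = 0.023). A gene of the egg coat, zp4.L, was found there as well. In stromal-like cells sox3.S stood at 2.57, 1.27 and 17.6% of its stage 1 level and zp4.L at 3.77, 0.502 and 18.4% of its own. In epithelial-like cells the percentages were 1.03, 0.247 and 6.59% for sox3.S and 1.95, 0.846 and 8.39% for zp4.L. Ovary 3 was highest in each case. The part of free oocyte RNA in the somatic sox3 values was not tested. With the ovary as a block, sox3.S was called higher in stromal-like cells (1.11, adjusted p = 0.0012) and lower in epithelial-like cells (-1.07, adjusted p = 0.0028) than in the other somatic cells, as was sox3.L (0.92 and -0.90, adjusted p = 0.016 and 0.015), and neither was called without it.

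**Figure D4:**
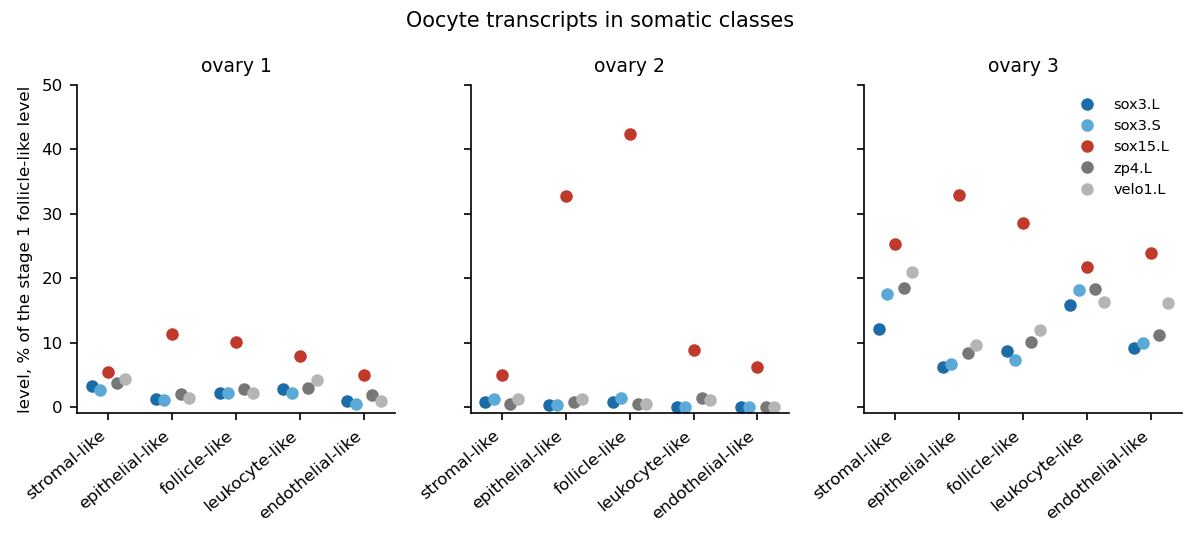
Level of 5 oocyte genes in the somatic classes as a percentage of their level in stage 1 follicle-like cells of the same ovary, with 1 panel per ovary and the axis from 0. In epithelial-like cells sox3.S lies below zp4.L in every ovary, and sox15.L lies above both, at 11.3%, 32.7% and 32.9%.

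sox2.S, the short-chromosome copy of the pluripotency and neural progenitor gene sox2, had its highest level in a single, small germ cell cluster, which held 83 of its 722 UMIs in kept germ cells. Early diplotene-like cells held 250, cluster 3 held 186 and pachytene-like cells 101, in far larger sums. In cluster 10 it stood at 2.88, 1.64 and 1.96 UMIs per 10000, against 0.0304, 0.126 and 0.0753 in the other germ cells. The groups did not overlap, and the difference was a log2 change of 4.19 ± 0.55 (SE) at an adjusted p of 0.00015. It held under every alternative fitted. The UMIs behind it were few, at 27, 7 and 49 in 17, 13 and 54 cells, and 18 of the 27 in ovary 1 came from 1 cell, without which its level was 1.19. A UMI of sox2.S was seen in 36 of the 84 cells, which were 7 of 17, 5 of 13 and 24 of 54 in ovaries 1, 2 and 3. With the cells pooled this was 42.9% (exact 95% interval 32.1 to 54.1%, counting error only, median 3202.5 UMIs per cell), against 1 of 796 leukocyte-like cells (0.126%, median 1542 UMIs), a class that should lack it. Thinned to 1000 UMIs per cell, the shares were 14 of 74 (18.9%) and 1 of 598 (0.167%), with 10 and 198 shallower cells left out. In GSC-like cells 15 of 166 had a UMI (9.04%, thinned 2.55%).

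Cluster 10 was a germ cell cluster with an unusual profile. The summed ddx4 and dazl markers stood at 10.9, 18 and 13.8 UMIs per 10000, against 31.6, 39.4 and 24.8 in the other germ cells. Its best match was the stage 1 follicle list, with a mean log2 excess of 1.44 over the other clusters. Each name was given once, and this one went to a cluster with an excess of 2.25. Cluster 5 had a higher excess of this list, 2.31. It stayed unnamed because clusters with a median under 1000 UMIs per cell were given no stage name, and its median was 940. Among the leading genes of cluster 10 by fold were snd1.S and tenm2.S. Summed endothelial markers were at 0.534, 2.1 and 1.36 and stromal markers at 0.32, 0.701 and 0.559 in cluster 10, against 0.391, 0.381 and 0.25 and 0.691, 0.354 and 0.5 in the other germ cells, and their part in the result was not tested. Leptotene-zygotene-like cells had 1.1, 1.16 and 1.35 of the endothelial markers. The 5 features whose level followed sox2.S most closely over the germline clusters of each ovary (33 points, which share libraries and depth, and 19561 features) were LOC108714999 (r = 0.948), LOC121396859 (0.944), atp10b.L (0.943), tshz2.L (0.943) and nrg3.L (0.940). Without cluster 10, in the same order, r was 0.720, 0.637, 0.631, 0.672 and 0.696 over 30 points.

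Outside cluster 10, sox2.S was low in stage 1 follicle-like and in G2/M-like cells. It stood at 0.0111, 0.0156 and 0.0118 in stage 1 follicle-like cells, against 0.0995, 0.134 and 0.166 in the other germ cells, a log2 change of -2.83 ± 0.46 (SE) at an adjusted p of 0.0054, a call lost without ovary 3 (adjusted p = 0.10). The stage 1 values lay below all others, the reverse of sox3. In the germ cells with over 8000 genes it was at 0.00928, 0.0455 and 0.035, a log2 difference of -1.1 ± 0.61 (SE, adjusted p = 0.23), and -1.20 with the ovary as a block (adjusted p = 0.012). G2/M-like cells had 0.00697, 0.0339 and 0.0537, from 1, 4 and 3 UMIs, a log2 change of -2.21 ± 0.58 (SE) at an adjusted p of 0.020, a call lost without ovary 1 (adjusted p = 0.055), without ovary 2 (0.056), without ovary 3 (0.097) and with Sox genes kept in the clustering (0.27). Early diplotene-like cells had 0.0213, 0.123 and 0.0943 and pachytene-like cells 0.0308, 0.139 and 0.152. Germ cells as a whole had 0.0669, 0.128 and 0.0993, against 0.00478, 0.0214 and 0.00968 in somatic cells, a log2 change of 2.49 ± 0.57 (SE) at an adjusted p of 0.0090, a call lost without ovary 3 (adjusted p = 0.10). Its homeolog sox2.L had 8 UMIs in all libraries. Of the sox1 homeologs, named after their values were seen, sox1.L had 1 UMI and sox1.S had 69, of which 66 lay in kept germ cells and 0 in somatic cells, at least 9.94-fold higher in germ cells over all ovaries against the 3 counts that a count of 0 allows. Of those 66, 39 were in pachytene-like cells.

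sox15.L, the single SoxG member, known in Xenopus as soxD and for its part in neural induction, was high in the oocytes, as sox3 was, but was also found in the earliest germ cells. In stage 1 follicle-like cells it stood at 1.96, 1.2 and 1.31 UMIs per 10000, against 0.467, 0.339 and 0.562 in the other germ cells. Every stage 1 value was above every other value, a log2 change of 2.27 ± 0.28 (SE) at an adjusted p of 0.0034, a call lost without ovary 3 (adjusted p = 0.069). The germ cells with over 8000 genes had 2.05, 1.16 and 1.59, against 1.02, 0.384 and 0.885, a log2 change of 1.83 ± 0.42 (SE) at an adjusted p of 0.036, a call lost with scaling by total UMIs (adjusted p = 0.067), without ovary 1 (0.19) and without ovary 3 (0.18). Early diplotene-like cells had 0.978, 0.606 and 0.843, which was called higher with the ovary as a block (0.90, adjusted p = 0.022) and not without it (adjusted p = 0.55).

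sox15.L was present in GSC-like to pre-meiotic S-like cells and low in the prophase groups that follow. GSC-like cells had 0.284, 0.374 and 0.433, G2/M-like cells 0.495, 0.364 and 0.322 and pre-meiotic S-like cells 0.448, 0.532 and 0.489. Leptotene-zygotene-like cells fell to 0.0386, 0.00628 and 0.174, against 1.09, 0.401 and 0.915 in the other germ cells, a log2 change of -4.09 ± 0.8 (SE) at an adjusted p of 0.0055. Pachytene-like cells stood at 0, 0.0188 and 0.0881, a log2 change of -4.88 ± 0.66 (SE) at an adjusted p of 0.0077, a call lost without ovary 1 (adjusted p = 0.057), and cluster 3 at 0.0481, 0.0793 and 0.0797, a log2 change of -3.57 ± 0.4 (SE) at an adjusted p of 0.033, a call lost without ovary 1 (adjusted p = 0.38) and without ovary 3 (0.093). Every ovary of these 3 groups was below every ovary of the GSC-like cells. That difference between groups was not itself tested. Against the other germ cells, oocytes included, the GSC-like level was also lower, a log2 change of -1.87 ± 0.43 (SE) at an adjusted p of 0.0071, a call lost with scaling by total UMIs (adjusted p = 0.051), without ovary 1 (0.073) and without ovary 3 (0.058). The same held for G2/M-like cells, a log2 change of -1.25 ± 0.4 (SE) at an adjusted p of 0.043, a call lost with scaling by total UMIs (adjusted p = 0.074), without ovary 1 (0.13), without ovary 3 (0.29), with the deeper sums thinned (0.051) and with Sox genes kept in the clustering (0.068). In pre-meiotic S-like cells it was called only with the block (-0.76, adjusted p = 0.030), as in cluster 10 (-1.45, adjusted p = 0.016).

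Germ cells as a whole held sox15.L at 1.02, 0.384 and 0.885 and somatic cells at 0.174, 0.35 and 0.372, a log2 difference of 0.64 ± 0.42 (SE, adjusted p = 0.23), and scaling by total UMIs gave 1.36 (adjusted p = 0.023). Its somatic level stood at 11.3, 32.7 and 32.9% of the stage 1 level in epithelial-like cells and at 10.1, 42.3 and 28.6% in follicle-like cells, above the zp4.L values of 1.95, 0.846 and 8.39% and 2.84, 0.526 and 10.1%. With the block it was called higher in epithelial-like (0.64, adjusted p = 0.018) and lower in stromal-like cells (-0.78, adjusted p = 0.048), and in neither class without it.

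Of the 5 SoxD members, sox5.L, sox5.S and sox6.L were higher in GSC-like cells. SoxD factors act mainly as cofactors of SoxE and other Sox proteins, as in cartilage. sox5.L stood at 0.756, 0.642 and 0.813 UMIs per 10000 in GSC-like cells, against 0.0623, 0.0143 and 0.0257 in the other germ cells, a log2 change of 3.8 ± 0.51 (SE) at an adjusted p of 0.00047. sox5.S stood at 0.307, 0.562 and 0.163, against 0.0159, 0.00378 and 0.0211, a log2 change of 3.99 ± 0.72 (SE) at an adjusted p of 0.0022. Both held under every alternative fitted. Neither would have passed the count filter of this comparison without its GSC-like level, so the kept calls are no separate support. The UMIs were 32, 24 and 15 for sox5.L and 13, 21 and 3 for sox5.S. sox5.L was also higher in G2/M-like cells, at 0.216, 0.347 and 0.394 against 0.0747, 0.00993 and 0.0225, a log2 change of 3.06 ± 0.65 (SE) at an adjusted p of 0.0094, a call lost without ovary 3 (adjusted p = 0.11) and with Sox genes kept in the clustering (0.11). There it passed the count filter only through its G2/M-like level.

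In pachytene-like and early diplotene-like cells sox5.L was almost absent. Pachytene-like cells had 0, 1 and 0 UMIs, against 75, 76 and 65 in the other germ cells, a ratio of levels in the pooled ovaries of 28.1-fold, with a 95% counting interval of 4.99 to 1116, lower in pachytene-like cells, at an adjusted p of 0.014, a call lost without ovary 1 (adjusted p = 0.057) and without ovary 3 (0.14). Early diplotene-like cells had 0, 1 and 2 UMIs and were lower by 36.7-fold, with a 95% counting interval of 12.4 to 179.6, at an adjusted p of 0.043, a call lost without ovary 1 (adjusted p = 0.20), without ovary 2 (0.074), without ovary 3 (0.20), with Sox genes kept in the clustering (0.055) and with no integration of the ovaries (0.19). In stage 1 follicle-like cells sox5.L stood at 0.0222, 0.0104 and 0.0176, from 6, 2 and 15 UMIs, and in the germ cells with over 8000 genes at 0.0229, 0.0091 and 0.0187, and it was not called in either (adjusted p = 0.18 and 0.47). sox5.S was not called in early diplotene-like cells (adjusted p = 0.051), but was with the block (-2.88, adjusted p = 0.0036) and with scaling by total UMIs (adjusted p = 0.024). In cluster 5, where sox5.S stood at 0.0574, 0 and 0.104, it was called higher with the block (1.80, adjusted p = 0.020) and not without it (adjusted p = 0.11). In cluster 3, sox5.L was lower with the block (-3.01, adjusted p = 0.0030). Between germ and somatic cells, sox5.S differed by -1.69 ± 0.62 (SE, adjusted p = 0.053) and by -1.61 with the ovary as a block (adjusted p = 0.012).

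sox6.L was higher in GSC-like cells too, at 0.449, 0.267 and 0.108 against 0.0406, 0.0553 and 0.0231 in the other germ cells, a log2 change of 2.17 ± 0.52 (SE) at an adjusted p of 0.0089, a call lost without ovary 1 (adjusted p = 0.19). It passed the count filter of this comparison only through its GSC-like level. sox6.S had its highest germline level in cluster 10, with 1.39, 1.4 and 0.559 against 0.0719, 0.129 and 0.0691, a log2 change of 2.86 ± 0.48 (SE) at an adjusted p of 0.0010, from 13, 6 and 14 UMIs. It was the other member called in that cluster, beside sox2.S. Pachytene-like cells had 0.185, 0.311 and 0.417 of sox6.S, against 0.0843, 0.0965 and 0.0522, a log2 change of 1.64 ± 0.36 (SE) at an adjusted p of 0.020, a call lost without ovary 1 (adjusted p = 0.057) and without ovary 3 (0.30). Leptotene-zygotene-like cells had 0.0964, 0.188 and 0.112 of sox6.L, which was called with the block (1.26, adjusted p = 0.014) and with scaling by total UMIs (adjusted p = 0.034), not otherwise (adjusted p = 0.071).

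The oocytes had little sox6. In stage 1 follicle-like cells sox6.S stood at 0.0185, 0.0313 and 0.0106, against 0.13, 0.135 and 0.125 in the other germ cells, a log2 change of -2.27 ± 0.47 (SE) at an adjusted p of 0.0098, a call lost without ovary 3 (adjusted p = 0.15). sox6.L stood at 0.00741, 0.0156 and 0.0047, against 0.0973, 0.0597 and 0.0386, a log2 change of -2.42 ± 0.63 (SE) at an adjusted p of 0.020, a call lost without ovary 1 (adjusted p = 0.092) and without ovary 3 (0.16). In early diplotene-like cells both were called lower with the block only (-1.28 for sox6.L and -0.94 for sox6.S, adjusted p = 0.030 and 0.031). In the germ cells with over 8000 genes both were called lower with the block (-1.69 and -2.18, adjusted p = 0.012 and 0.0010) and with scaling by total UMIs (adjusted p = 0.034 and 0.033), and not otherwise.

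In the somatic cells, sox6.S was higher in the epithelial-like class. It was called lower in 4 others, each against a rest that included the epithelial-like cells. In the epithelial-like comparison sox6.S passed the count filter only through its epithelial-like level. sox6.S stood at 0.282, 0.275 and 0.325 in epithelial-like cells, against 0.0388, 0.0151 and 0.0455 in the other somatic cells, a log2 change of 3.01 ± 0.33 (SE) at an adjusted p of 0.00088. It fell in stromal-like cells to 0.0456, 0 and 0.0296, against 0.18, 0.231 and 0.216, a log2 change of -2.45 ± 0.48 (SE) at an adjusted p of 0.0078, a call lost without ovary 3 (adjusted p = 0.061), and in follicle-like cells to 0.0424, 0.0424 and 0.0838, a log2 change of -1.7 ± 0.35 (SE) at an adjusted p of 0.033, a call lost without ovary 1 (adjusted p = 0.33), without ovary 2 (0.12) and without ovary 3 (0.17). The follicle-like level was above the 0.0388, 0.0151 and 0.0455 of all somatic cells outside the epithelial-like class in each ovary. Its call as lower thus depends on the epithelial-like cells in the rest. Endothelial-like cells had 1, 0 and 0 UMIs, lower by 16.9-fold, with a 95% counting interval of 3.02 to 670.0, at an adjusted p of 0.0049, a call lost without ovary 1 (adjusted p = 0.11). Leukocyte-like cells had 0, 0 and 1, lower by 23.7-fold, with a 95% counting interval of 4.24 to 939, at an adjusted p of 0.0031, a call lost without ovary 1 (adjusted p = 0.057). sox6.L was lower in follicle-like cells, at 0.0619, 0.0849 and 0.0457 against 0.226, 0.191 and 0.182, a log2 change of -1.72 ± 0.36 (SE) at an adjusted p of 0.034, a call lost without ovary 1 (adjusted p = 0.31), without ovary 2 (0.072) and without ovary 3 (0.26), and in leukocyte-like cells, at 0.0594, 0 and 0, a log2 change of -2.43 ± 0.72 (SE) at an adjusted p of 0.031, a call lost without ovary 2 (adjusted p = 0.089) and without ovary 3 (0.11).

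The homeologs of sox6 parted in the stromal-like cells. There sox6.L supplied 82.8, 100 and 80.6% of the sox6 UMIs, from 134, 6 and 36 UMIs, against 48.4, 44.1 and 45.2% in epithelial-like cells. The share was higher in stromal-like than in epithelial-like cells in each of the 3 ovaries, and the difference was not tested further. Follicle-like cells had 59.4, 66.7 and 35.3%, from 32, 6 and 17 UMIs. Other classes had few sox6 UMIs. In ovaries 1 and 3 endothelial-like cells had 88.9% of 9 and 100% of 2, and leukocyte-like cells 100% of 5 and 0% of 1. A high share was thus not particular to stromal-like cells. sox6.L was not called in stromal-like cells (-0.04 ± 0.37, SE, adjusted p = 0.97) and was called in epithelial-like cells only with the block (1.28, adjusted p = 0.0023) and with scaling by total UMIs (adjusted p = 0.032). Over all cells, sox6.L stood at 0.0642, 0.0574 and 0.0239 in germ cells, against 0.196, 0.181 and 0.158 in somatic cells, a log2 change of -2.67 ± 0.36 (SE) at an adjusted p of 0.00091. sox6.S stood at 0.0887, 0.13 and 0.0754, against 0.14, 0.208 and 0.155, a log2 change of -1.49 ± 0.3 (SE) at an adjusted p of 0.0050, a call lost with scaling by total UMIs (adjusted p = 0.079) and without ovary 3 (0.075).

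sox13.S was spread over germ and somatic cells, with 0.175, 0.202 and 0.151 in germ cells and 0.102, 0.13 and 0.0816 in somatic cells, a log2 difference of 0.03 ± 0.27 (SE, adjusted p = 0.95). It was higher in endothelial-like cells, at 0.483, 0.522 and 0.417 against 0.0843, 0.12 and 0.0725 in the other somatic cells, a log2 change of 2.26 ± 0.37 (SE) at an adjusted p of 0.0016, a call lost without ovary 1 (adjusted p = 0.094). It was lower in pre-meiotic S-like cells, at 0.0959, 0.0858 and 0.0863 against 0.178, 0.204 and 0.152 in the other germ cells, from 3, 5 and 3 UMIs, a log2 change of -1.3 ± 0.39 (SE) at an adjusted p of 0.041, a call lost with DESeq2 (adjusted p = 0.073), with scaling by total UMIs (0.13), without ovary 1 (0.074), without ovary 2 (0.19), without ovary 3 (0.22), with Sox genes kept in the clustering (0.058) and with no integration of the ovaries (0.25). In GSC-like cells, with 0.52, 0.776 and 0.271, it was called with the block (0.95, adjusted p = 0.028) and with scaling by total UMIs (adjusted p = 0.0039), and sox6.S likewise (1.09, adjusted p = 0.028 with the block and 0.0059 with total UMIs). With the block sox13.S was lower in leukocyte-like cells (-1.85, adjusted p = 0.041). sox5.L was higher in stromal-like cells, at 0.0476, 0.0607 and 0.0507 against 0.0197, 0.0172 and 0.0164, a log2 change of 1.56 ± 0.4 (SE) at an adjusted p of 0.026, a call lost with no filter on low counts (adjusted p = 0.090), with DESeq2 (0.086), without ovary 1 (0.14), without ovary 2 (0.14), without ovary 3 (0.18) and with the deeper sums thinned (0.055). It was lower in epithelial-like cells, at 0.0144, 0.0157 and 0.0106 against 0.0378, 0.0377 and 0.0387, a log2 change of -1.4 ± 0.39 (SE) at an adjusted p of 0.046, a call lost with no filter on low counts (adjusted p = 0.13), with DESeq2 (0.19), without ovary 1 (0.17), without ovary 2 (0.20), without ovary 3 (0.28), with the deeper sums thinned (0.083), with no integration of the ovaries (0.067) and without the cells of highest doublet score (0.083). In the stromal-like comparison sox5.L passed the count filter only through its stromal-like level. sox5.S was called in stromal-like cells with the block only (1.22, adjusted p = 0.049).

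The SoxC genes, transcriptional activators of many progenitor cells, were found at low levels nearly everywhere. sox11.L stood at 0.201, 0.147 and 0.132 UMIs per 10000 in germ cells and 0.228, 0.142 and 0.145 in somatic cells. The groups overlapped. Relative to the typical gene sox11.L was lower in germ cells, a log2 change of -0.89 ± 0.31 (SE) at an adjusted p of 0.043, a call lost with no filter on low counts (adjusted p = 0.069), with scaling by total UMIs (0.78), without ovary 1 (0.12), without ovary 2 (0.075) and without ovary 3 (0.16). Leptotene-zygotene-like cells had less than the other germ cells, with 0.116, 0.0628 and 0.0497 of sox11.L against 0.207, 0.151 and 0.135 in the other germ cells, a log2 change of -1.66 ± 0.39 (SE) at an adjusted p of 0.011, a call lost with scaling by total UMIs (adjusted p = 0.058), without ovary 2 (0.055) and without ovary 3 (0.12). For sox11.S they had 0.0193, 0.0314 and 0.0124 against 0.162, 0.0616 and 0.101, a log2 change of -2.67 ± 0.57 (SE) at an adjusted p of 0.0079, a call lost without ovary 3 (adjusted p = 0.090). In stage 1 follicle-like cells sox11.L was called higher, at 0.318, 0.136 and 0.132 against 0.132, 0.147 and 0.132. Only ovary 1 had the stage 1 value clearly above the others, and the log2 change was 1.02 ± 0.33 (SE) at an adjusted p of 0.042, a call lost with no filter on low counts (adjusted p = 0.074), with scaling by total UMIs (0.36), without ovary 1 (0.11), without ovary 2 (0.063) and without ovary 3 (0.20). sox11.S was called higher in stromal-like cells with the block only (1.31, adjusted p = 0.0096), and sox11.L lower in leukocyte-like cells with the block (-1.78, adjusted p = 0.0089) and with scaling by total UMIs (adjusted p = 0.047).

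The sox4 homeologs were lower in germ cells. sox4.S stood at 0.0191, 0.0296 and 0.0219 in germ cells, against 0.046, 0.0506 and 0.0678 in somatic cells, a log2 change of -1.91 ± 0.37 (SE) at an adjusted p of 0.0045, a call lost without ovary 3 (adjusted p = 0.072). sox4.L stood at 0.0205, 0.0224 and 0.0204, against 0.0776, 0.0195 and 0.0346. Its ovary 2 value was lower in somatic than in germ cells, so the groups overlapped, and the log2 change was -1.86 ± 0.56 (SE) at an adjusted p of 0.027, a call lost with scaling by total UMIs (adjusted p = 0.10), without ovary 1 (0.19) and without ovary 3 (0.11). In stage 1 follicle-like cells sox4.L had 0.0037, 0.00521 and 0.00706, from 1, 1 and 6 UMIs, against 0.0303, 0.0234 and 0.0305 in the other germ cells, a log2 change of -1.63 ± 0.54 (SE) at an adjusted p of 0.047, a call lost with no filter on low counts (adjusted p = 0.099), with the ovary as a block (0.056), with DESeq2 (0.098), without ovary 1 (0.14), without ovary 2 (0.13) and without the cells of highest doublet score (0.069). In the germ cells with over 8000 genes sox4.S had 0.00146, 0.00303 and 0.00234, from 3, 1 and 1 UMIs, against 0.0191, 0.0296 and 0.0219, a log2 change of -2.84 ± 0.62 (SE) at an adjusted p of 0.034, a call lost without ovary 1 (adjusted p = 0.19), without ovary 2 (0.064) and without ovary 3 (0.19). sox4.L was called lower there with the block (-2.09, adjusted p = 0.042) and with scaling by total UMIs (adjusted p = 0.041). Both homeologs were called higher in pachytene-like cells with the block (1.24 for sox4.L and 1.24 for sox4.S, adjusted p = 0.033 and 0.021). The third SoxC gene, sox12, had 30 UMIs of sox12.S in all libraries.

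Of the SoxE genes, sox8 and sox9 act in the developing gonad of vertebrates, Sox9 on the testis side, and sox8 was found here in stromal-like and GSC-like cells. In stromal-like cells sox8.L stood at 0.101, 0.0607 and 0.0338 UMIs per 10000, against 0.00598, 0.00862 and 0.00206 in the other somatic cells, a log2 change of 3.69 ± 0.68 (SE) at an adjusted p of 0.0056, a call lost without ovary 1 (adjusted p = 0.11). sox8.S stood at 0.155, 0.0607 and 0.0803, against 0.0282, 0.0302 and 0.0164, a log2 change of 2.21 ± 0.52 (SE) at an adjusted p of 0.018, a call lost without ovary 1 (adjusted p = 0.14), without ovary 2 (0.059) and without ovary 3 (0.060). The ovary 2 values rest on 3 UMIs each. In this comparison both sox8 homeologs passed the count filter only through their stromal-like levels. In follicle-like cells, the cells that surround the oocyte, sox8.S had 0.0196, 0.0212 and 0.0229 and sox8.L had 0.00652, 0 and 0. sox8.S was not called there against the other somatic cells (adjusted p = 0.34), and sox8.L had too few UMIs for the test.

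Within the germ cells, sox8.S was higher in GSC-like cells, at 0.236, 0.241 and 0.325 against 0.0145, 0.00243 and 0.0118 in the other germ cells, a log2 change of 4.12 ± 0.7 (SE) at an adjusted p of 0.0016. All 3 GSC-like values were above all others, from 10, 9 and 6 UMIs. sox8.S passed the count filter of this comparison only through these values, so the lack of overlap is no separate support. sox8.L had 11 UMIs in GSC-like cells, 10 of them in ovary 1, and 2 in the other germ cells, a ratio of levels of 355-fold, with a 95% counting interval of 77.5 to 3299, without a test across ovaries. sox9.L had 3, 2 and 1 UMIs in GSC-like cells, at 0.0709, 0.0535 and 0.0542 against 0, 0.00324 and 0.00308, a log2 change of 3.74 ± 0.85 (SE) at an adjusted p of 0.0068. This call rests on 6 UMIs. sox9.L passed the count filter through its level in GSC-like cells and was tested in no other comparison. The call was kept under those alternatives in which it was tested. Germ cells as a whole had 0.0273, 0.00481 and 0.0148 of sox8.S, against 0.0663, 0.0331 and 0.0373 in somatic cells, a log2 change of -2.43 ± 0.65 (SE) at an adjusted p of 0.017, a call lost without ovary 1 (adjusted p = 0.056) and without ovary 3 (0.084). For sox8.L they had 0.0137, 0.000534 and 0.000509, against 0.0346, 0.0136 and 0.0124, a log2 change of -3.49 ± 1.14 (SE) at an adjusted p of 0.035, a call lost with scaling by total UMIs (adjusted p = 0.068), without ovary 2 (0.080), without ovary 3 (0.15) and with Sox genes kept in the clustering (0.055).

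The GSC-like cells also held traces of somatic marker RNA. Summed stromal markers (17 features) stood at 1.49, 0.963 and 0.704 UMIs per 10000 in GSC-like cells, against 0.638, 0.348 and 0.499 in the other germ cells and 140.4, 388 and 198 in stromal-like cells. Summed follicle markers (14 features) stood at 0.709, 0.882 and 0.379, against 0.569, 0.0693 and 0.15 in the other germ cells and 20.8, 17.6 and 18.7 in follicle-like cells. Their part in the sox8, sox9 and sox5 results was not tested. sox5.L and sox8.S levels in GSC-like cells were above those of stromal-like cells, at 0.0476, 0.0607 and 0.0507 and 0.155, 0.0607 and 0.0803, in every ovary. sox10, the neural crest and glial gene, had few UMIs, with sox10.L at 0, 0 and 2 and sox10.S at 0, 1 and 1 UMIs in mural-like cells of ovaries 1, 2 and 3. These sums hold 40, 9 and 8 cells, and the summed glial markers were at 0 in all 3 of them.

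The SoxF genes, known from blood vessel and lymphatic endothelium, included 4 members that were higher in endothelial-like cells, named from a list of 16 features such as pecam1, cdh5 and kdr. sox7.S stood at 1.03, 1.19 and 1.04 UMIs per 10000 there, against 0.0025, 0.006 and 0.00284 in the other somatic cells, a log2 change of 8.08 ± 0.42 (SE) at an adjusted p of 4.5e-07. sox7.L stood at 0.4, 0.298 and 0.365, against 0.000624, 0 and 0.00426, a log2 change of 7.6 ± 0.7 (SE) at an adjusted p of 2.1e-05. sox17a.L stood at 0.662, 0.298 and 0.365, against 0.00562, 0.008 and 0.00142, a log2 change of 6.44 ± 0.61 (SE) at an adjusted p of 2.4e-05. sox18.L had 10, 3 and 2 UMIs in endothelial-like cells and 1 in all other somatic cells, a ratio of 401-fold, with a 95% counting interval of 61.6 to 16863 (adjusted p = 0.00012). All 4 held under every alternative in which they were tested, and in each the lowest endothelial-like value was above the highest other value. All 4 passed the count filter of this comparison only through their endothelial-like levels. The kept calls and the lack of overlap are therefore no separate support. sox18.L was tested in no other comparison. Ovaries 2 and 3 contributed only 37 and 81 endothelial-like cells. sox17a.S had 22 UMIs in endothelial-like cells and 3 in other somatic cells, a ratio of 196-fold, with a 95% counting interval of 58.8 to 1022, with no test. Over all cells sox17a.S had 27, 0 and 1 UMIs in ovaries 1, 2 and 3, so this pooled ratio rests almost wholly on ovary 1.

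Within the endothelial-like class the SoxF UMIs came mostly from 1 of its 2 clusters. Cluster 17 (203 cells, led by aqp1, apln, cldn5 and esm1) held all 75, 16 and 20 UMIs of sox7.S and all 48, 4 and 7 of sox17a.L. Cluster 20 (110 cells, led by vwf, lyve1, stab2 and mrc1) held none of either, against a pooled level of 0.107 that 3 counts would give. sox13.S followed, with 34, 7 and 8 UMIs in cluster 17 and 1, 0 and 0 in cluster 20. sox7.L was found in both, with 23, 4 and 5 and 6, 0 and 2 UMIs, as was sox18.L, with 9, 3 and 1 and 1, 0 and 1. The 2 clusters were compared after their values were seen and without a test.

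Elsewhere sox7.S and sox17a.L were scarce. sox7.S had 0, 0 and 0 UMIs in stromal-like cells, at least 14.9-fold lower than in the other somatic cells over all ovaries, against the 3 counts that a count of 0 allows (adjusted p = 0.0049). Epithelial-like cells had 1, 0 and 1 UMIs, lower by 51.7-fold, with a 95% counting interval of 14 to 432 (adjusted p = 0.0024). Germ cells had 1, 1 and 1, lower than somatic cells by 88.5-fold, with a 95% counting interval of 29.6 to 435 (adjusted p = 0.00024). sox17a.L had no UMI in 8175 germ cells, at least 53.8-fold lower than in somatic cells by the same measure (adjusted p = 0.0017). Each of these lower calls was made against a sum that included the endothelial-like cells. Those cells held most of the somatic UMIs of sox7.S and sox17a.L. The lower calls thus rest largely on them and are not separate from the endothelial-like results. Other SoxF members were found in germ cells. sox7.L had 17, 0 and 10 UMIs in germ cells, 20 of these 27 in stage 1 follicle-like cells, 20, 1 and 1 in the germ cells with over 8000 genes, and 30, 4 and 10 in somatic cells. Germ and somatic cells differed in sox7.L by a log2 value of -1.65 ± 1.22 (SE, adjusted p = 0.29). sox17b.1, named after its values were seen, had 3, 3 and 0 UMIs of sox17b.1.L and 4, 4 and 0 of sox17b.1.S in GSC-like cells, none of them in ovary 3. Pooled over the ovaries these were 6 and 8 UMIs, against 2 and 3 in the other germ cells, ratios of 194-fold, with a 95% counting interval of 34.7 to 1964, and 172-fold, with a 95% counting interval of 41.3 to 1008, with no test across ovaries. Summed endothelial markers stood at 1.09, 0.963 and 1.14 in GSC-like cells, against 0.351, 0.377 and 0.256 in the other germ cells and 19.5, 17.2 and 17.7 in endothelial-like cells, and their part was not tested. Such a level was not particular to GSC-like cells. Leptotene-zygotene-like cells had 1.1, 1.16 and 1.35 and pachytene-like cells 1.2, 0.936 and 0.921 of these markers.

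**Figure D5:**
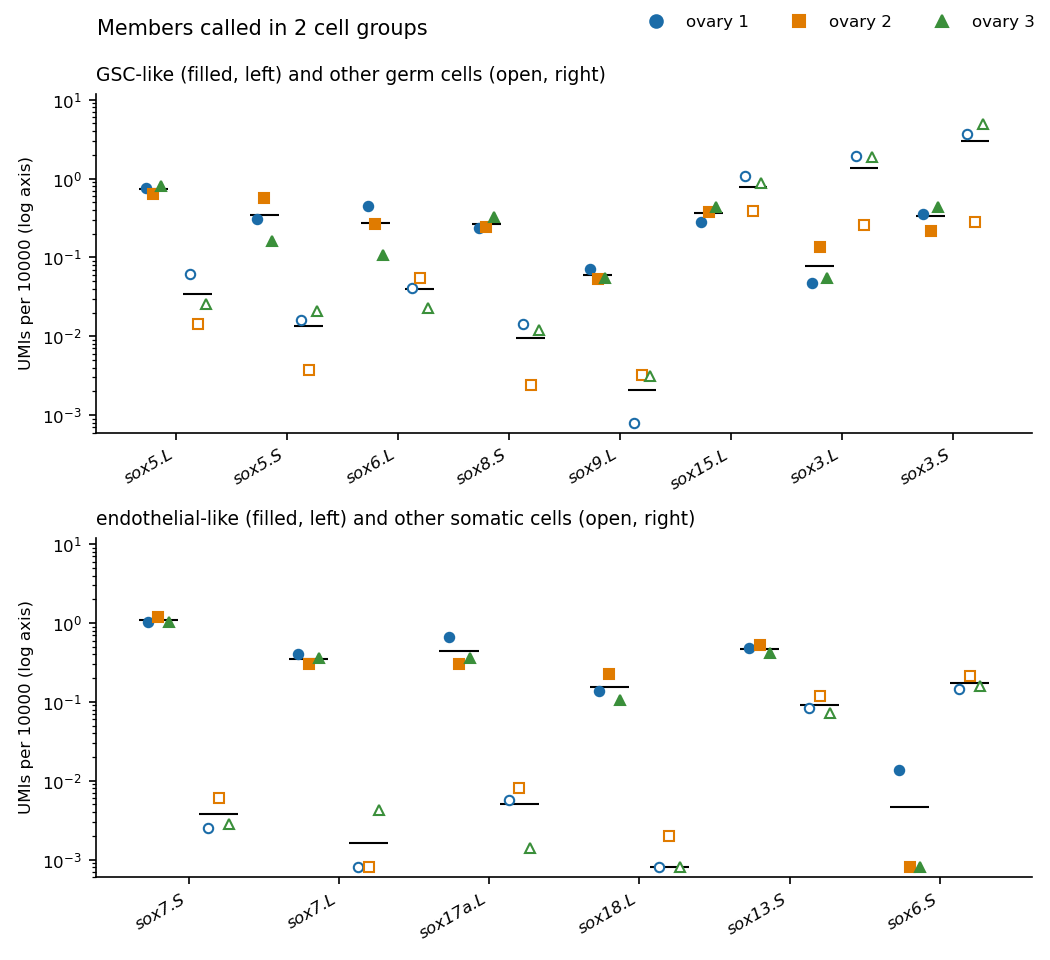
Levels of Sox members in GSC-like cells and the other germ cells (upper panel) and in endothelial-like cells and the other somatic cells (lower panel), in UMIs per 10000 UMIs on a log axis. Points are ovaries, lines are means, and values of 0 are drawn near the lower edge. The GSC-like points of sox5.L, sox5.S and sox8.S lie above all points of the other germ cells, and the endothelial-like points of sox7, sox17a.L and sox18.L above all points of the other somatic cells.

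The SoxB2 genes, repressors that oppose SoxB1 in neural tissue, were nearly absent. sox14.L had 2 and sox14.S had 1 UMIs in the 3 libraries, and sox21 had none. sox9.S, outside the rule for named members and given after its value was seen, had 35 UMIs.

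Genes known to work with the Sox subfamilies were counted from 4 lists. In endothelial-like cells 12 of 14 vascular factors tested were higher than in the other somatic cells and none was lower, where 12.2% of all genes were called, with a median log2 difference of 3.98 against -0.17 for all genes tested. Examples were the Notch ligand dll4.S (8.69) and the ETS factors erg.L (7.55) and ets1.L (3.07). In GSC-like cells 6 of 11 vascular factors were higher and none lower than in the other germ cells, among them the haematopoietic factors tal1.L (4.40) and gata2.L (5.38) and the muscle and vessel factor mef2c.L (3.24). In this comparison 37.2% of all genes were called. The median over the list was 2.11, against -0.07 for all genes tested.

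Of the gonadal sex factors, 4 of 11 tested were higher in follicle-like cells than in the other somatic cells and none lower (4.23% of all genes were called), including foxl2.L (2.13) and gata4.S (1.04), with a list median of 1.04 against -0.01 for all genes tested. foxl2 and amh were also among the markers that named this class. In GSC-like cells 6 of 10 were higher and none lower (37.2% of all genes), with fgf9.S at 6.33 and a list median of 1.80. In cluster 5 there were 6 of 7 higher and 1 lower, dmrt1.L (2.1% of all genes), with a list median of 4.73. The 6, among them foxl2.S at 0.631, 0 and 0.174 against 0.0265, 0.00347 and 0.00852 in the other germ cells, were at 0 in ovary 2, which had 12 cells of this cluster. Summed follicle markers stood at 4.55, 0 and 1.48 in cluster 5, against 0.272, 0.0775 and 0.0906 in the other germ cells, and their part was not tested. Against somatic cells, germ cells had 1 of 14 higher, dmrt1.L (2.79), a gene of germ and Sertoli cells, and 12 lower (48.6% of all genes). Of the SoxB1 partners, stage 1 follicle-like cells had 2 of 11 higher and none lower than the other germ cells (33.7% of all genes). The first was pou5f3.3.L, an oocyte relative of the mammalian pluripotency factor Oct4, at 2.97, 0.907 and 1.87 against 0.394, 0.0248 and 0.534 (log2 change 3.14), and the second sall4.L (2.77), and the list median was 2.47 against -0.14 for all genes tested. Both were lower in GSC-like cells (-5.55 and -2.01), where 4 of 13 partners were higher and 2 lower (37.2% of all genes), with pou3f1.S at 5.31. In cluster 10, with sox2.S, 1 of 10 partners was higher (20.9% of all genes), pou2f1.L (1.09), which encodes Oct-1. TCF/LEF factors, the other HMG-box family, and beta-catenin had 2 of 9 higher in GSC-like cells, tcf7l2.S (3.61) and tcf7l2.L (1.23), with a list median of -0.02, and 2 lower, ctnnb1.L (-2.23) and ctnnb1.S (-1.44). These 4 of 9 calls are a share near the 37.2% of all genes called in this comparison.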

How the data were processed

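The authors aligned and counted the reads with Cell Ranger 8.0.1, and the deposited matrices hold raw UMI counts per feature and cell barcode for each of the 3 ovaries. The genome build is not given in the sources used here, and no sequences or coordinates are printed. Features without a gene name held between 0.363% and 0.443% of the UMIs of a library and were left out.

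The filter of the study's methods was used (between 100 and 8000 genes, mitochondrial UMIs of no more than 1.5%). In Seurat 5.3.0 (R 4.3.3) the ovaries were integrated by canonical correlation on 2000 variable genes, from which 5 Sox members (sox2.S, sox3.L, sox3.S, sox7.S and sox15.L) had been removed, and clustered (20 dimensions, resolution 1, and 30 dimensions, resolution 0.5, for the germ cells). Clusters with a summed ddx4 and dazl level of at least 5 UMIs per 10000 were taken as germ cells, a limit set after the gap between 3.88 and 13.4 was seen. Other names came from marker lists. Scrublet (scanpy 1.11.5) marked 43, 4 and 37 cells, too few to rely on, and doublets were kept as in the study's methods. Cells with over 8000 genes entered the germ cell group of that name with the same level of at least 5.

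UMI counts were summed per ovary and cell group (at least 10 cells per sum), with 3 sums against 3 in each of 19 comparisons, and tested with edgeR 4.0.16 (filterByExpr, TMM, quasi-likelihood F test, Benjamini-Hochberg over all genes tested, threshold 0.05). The rest of a comparison held all other germ or somatic cells, so comparisons share cells. A member that passed the count filter through a single group of sums could be called only as higher there. The SE is the log2 change divided by the square root of F. Sums of the same library share an ovary, and their deviations from the group means correlated by 0.133 to 0.627, so the ovaries pair the sums, and values with the ovary as a block are given where they change a call. Intervals are exact (Clopper-Pearson) at 95% and cover counting error only, as do floors of 3 counts. Alternatives were DESeq2 1.42.0, no count filter, total-UMI scaling, leaving out each ovary, thinned sums, Sox genes kept in the clustering, no integration, at least 500 genes per cell, and removal of the 5% highest doublet scores. The edgeR fit was also run on simulated counts, drawn independently for each sum and changed only in well-counted genes. These counts covered neither the pairing by ovary nor members with few UMIs.

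Values per ovary are given for members with a mean level of at least 0.1 in a cell group or a call, and for the sox2 homeologs. The features most like sox2.S were ranked by Pearson's r of log2(level + 0.1). The members, lists and tests were chosen with earlier results of these data known. Of the SoxB1 partners pou5f3.1, ventx1.1 and ventx2.1 were not matched by name.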

Additional observations from a re-analysis of the deposited data

How the results depend on the processing

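Each count of called Sox members or pairs was recomputed under 12 alternatives, and no call changed direction under any of them. For members that passed the count filter through a single group of sums, the filter had fixed the direction. With the ovary as a block, the germline pairs called numbered 55 instead of 36, the somatic pairs 29 instead of 18, and the members called in germ cells with over 8000 genes 8 instead of 2, with 13 instead of 10 between germ and somatic cells. The block ended 1 call, that of sox4.L in stage 1 follicle-like cells. Shares of all genes called are given only for the main fit and for scaling by total UMIs. Without a filter on low counts the somatic pairs numbered 28, with fewer genes removed before the adjustment. DESeq2 called 4 members in the germ cells with over 8000 genes, as did scaling by total UMIs, which was chosen after seeing the data. With the deeper sums thinned, 8 somatic pairs and 1 member in the germ cells with over 8000 genes were called. Leaving out an ovary gave 3 to 11 members between germ and somatic cells, 14 to 35 germline pairs, 8 to 14 somatic pairs and 0 to 3 members in the germ cells with over 8000 genes, from 2 sums per group. Mural-like cells could not be fitted under any setting, cluster 5, pachytene-like and stage 1 follicle-like cells could not without integration, and erythroid-like cells could not with at least 500 genes per cell or without the cells of highest doublet score. The cell limit of at least 500 genes was not run on the germ cells with over 8000 genes. Depth limits the members with few UMIs in a group, whose UMIs are given beside their values.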

Other observations

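Some cells belonged to none of the compared groups. The 148, 895 and 726 cells of ovaries 1, 2 and 3 that failed the filters with at most 8000 genes held sox3.S at 1.21, 0.0991 and 1.53 UMIs per 10000, sox15.L at 0.528, 0.327 and 0.435, and sox2.S at 0.0528, 0.0942 and 0.167.

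A further 37, 1 and 4 cells had over 8000 genes and a summed ddx4 and dazl level under 5. These cells carried oocyte Sox transcripts, with sox3.L at 5.23, 8.55 and 3.48, sox3.S at 5.16, 7.57 and 3.87, and sox15.L at 2.60, 1.78 and 1.68 UMIs per 10000. Their sox3.L level exceeded that of the germ cells with over 8000 genes in ovaries 1 and 2, which had 5.13, 1.95 and 4.48, and was below it in ovary 3.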
